A study of Mus musculus with 6 samples.

Results

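Interferon-stimulated genes are the transcripts that cells switch on when interferon reaches them. Their values were followed in 6 mouse pro-B cell colony cultures. The 36 genes were taken by symbol from a list of interferon-stimulated genes that was chosen with earlier results of these data known. Each had 1 row among the 22551 distinct gene symbols of the expression table. Pro-B cells are precursors of B cells at the stage of heavy-chain gene rearrangement. Each library held RNA of colonies grown from bone marrow in methylcellulose medium for B cells, collected after 1 week at passage 1. By the titles, 3 libraries came from Ts1Rhr mice and 3 from wild-type mice. Ts1Rhr mice carry a germline triplication on chromosome 16, present in every cell type of a culture. The labels give no age or strain background and do not say whether the cultures came from separate mice, and their genotype field reads Ts1Rhr for all 6 libraries.

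The 6 columns of values are named A1, A2, A3, C1, C2 and C3 after a prefix for passage 1. Neither the labels nor the header says which letter is which genotype, so the columns were treated as 6 cultures of 1 kind and no contrast between genotypes was made. Values per gene are given in that order of columns. The unit is FPKM, fragments per kilobase of transcript scaled to the mapped fragments of the library, which corrects for gene length, so that levels of different genes can be set side by side. The labels and the table state no read totals, and the depth behind each value is therefore unknown.

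Type I interferons bind a receptor made of the Ifnar1 and Ifnar2 chains, whose kinases Jak1 and Tyk2 phosphorylate Stat2. Stat2 and Irf9 are parts of the complex ISGF3, which binds the interferon-stimulated response element in the promoters of its targets. Many targets restrict viruses, sense viral RNA or present antigen, and several, such as Irf7, Stat2 and Irf9, belong to the signalling machinery itself and keep a low level of expression without infection.

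Most of these genes were measured at low to moderate levels. Of the 36, 26 had a median of at least 1 FPKM over the cultures, against 47.3% of all symbols of the table. A median of 10 FPKM or more was found for 8 of the 36, while 18 lay between 1 and 10 FPKM and 10 lay below 1 FPKM. The share of all symbols at 10 FPKM or more was not computed. The median over the 26 genes was 5.92 FPKM, against 11.5 FPKM over the 10673 genes of the table that passed the same minimum. None of the 36 was listed at 0 in any culture.

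**Figure D1:**
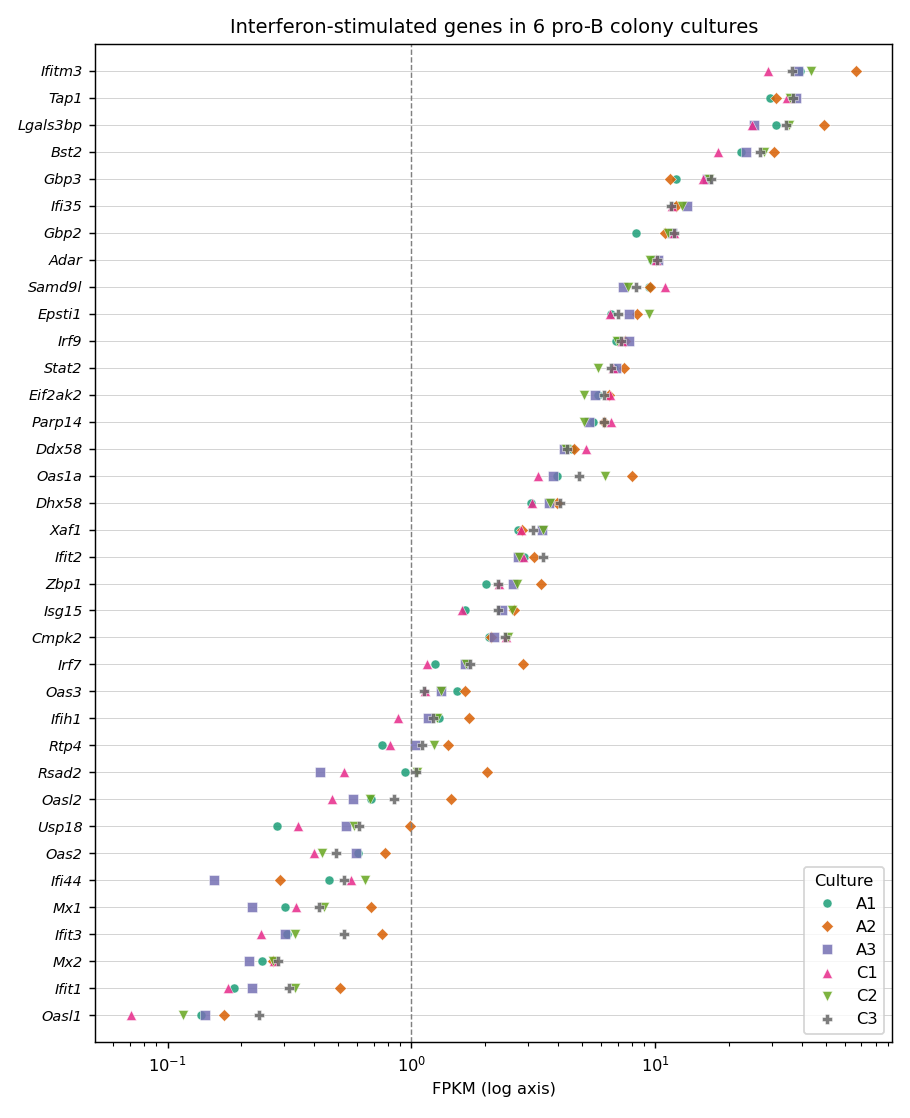
FPKM of each interferon-stimulated gene (log axis) in each of the 6 cultures, with genes in order of their median and 1 symbol per culture. The dashed line marks 1 FPKM. Ifitm3 is at the top with a median of 38.8 FPKM and Oasl1 at the bottom with 0.139 FPKM, and the symbols of culture A2 lie to the right of the others for many of the low genes.

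By median FPKM, the 4 most abundant members were Ifitm3, Tap1, Lgals3bp and Bst2. Ifitm3, a membrane protein that hinders virus entry, had 39.2, 66.7, 38.5, 29.0, 43.3 and 36.3 FPKM. Culture A2 was the highest and C1 the lowest. Tap1, a subunit of the transporter that loads peptides onto MHC class I, had 29.6, 31.4, 37.9, 34.6, 35.8 and 36.7 FPKM. Its order was different, with A3 highest and A1 and A2 lowest. Lgals3bp, a secreted glycoprotein, had 31.3, 49.1, 25.5, 24.9, 35.2 and 34.2 FPKM, and Bst2, the protein that tethers budding virions to the cell surface, had 22.5, 30.8, 23.5, 18.0, 27.8 and 26.8 FPKM. In both, A2 was highest, C2 followed and C1 was lowest.

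The guanylate-binding GTPases, which act on vacuoles that hold pathogens, came next. Gbp3 had 12.1, 11.5, 16.3, 15.7, 16.6 and 16.9 FPKM, with A1 and A2 below the other 4 cultures. Gbp2 had 8.32, 10.9, 11.7, 11.9, 11.3 and 11.9 FPKM, with A1 alone at the low end. Of the other genes in the upper range, Ifi35 had 11.8, 12.2, 13.5, 11.7, 12.9 and 11.6 FPKM. Adar, which deaminates adenosines in double-stranded RNA, had 9.70, 10.1, 10.3, 10.1, 9.55 and 10.2 FPKM, and its highest value was 1.08 times its lowest. Samd9l had 9.42, 9.53, 7.39, 11, 7.69 and 8.33 FPKM, highest in C1. Epsti1 had 6.56, 8.38, 7.78, 6.53, 9.42 and 7.02 FPKM, highest in C2.

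The members that belong to the signalling machinery did not share a pattern. Irf9, the DNA-binding subunit of ISGF3, had 6.88, 7.50, 7.82, 7.29, 6.97 and 7.26 FPKM, a highest value 1.14 times the lowest. Stat2, its partner, had 6.75, 7.47, 6.90, 6.73, 5.81 and 6.59 FPKM, 1.29 times apart. Irf7, the factor that amplifies interferon production, had 1.25, 2.86, 1.65, 1.16, 1.67 and 1.74 FPKM, with A2 apart from the other 5, which lay between 1.16 and 1.74 FPKM. Usp18, the protease that removes Isg15 and dampens receptor signalling, had 0.280, 0.989, 0.541, 0.343, 0.581 and 0.612 FPKM, again highest in A2. Isg15 itself, a ubiquitin-like modifier, had 1.65, 2.63, 2.35, 1.61, 2.58 and 2.27 FPKM, with C2 close behind A2.

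The RNA sensors were low. Ddx58, the RIG-I helicase, spanned 4.24 to 5.19 FPKM and Dhx58, a related helicase, 3.10 to 4.08 FPKM. Ifih1, the third helicase of the family, had 1.30, 1.72, 1.17, 0.879, 1.27 and 1.23 FPKM. Zbp1, a sensor of Z-form nucleic acid, had 2.02, 3.40, 2.60, 2.29, 2.71 and 2.26 FPKM. A2 was highest for these last 2 genes and not for the other helicases. Eif2ak2, the kinase that halts translation on double-stranded RNA, spanned 5.08 to 6.53 FPKM.

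Among the oligoadenylate synthetases, enzymes whose product activates RNase L, levels differed widely. Oas1a had 3.94, 8.03, 3.79, 3.32, 6.19 and 4.86 FPKM, a highest value 2.42 times the lowest. Of the members of at least 1 FPKM, only Irf7 with 2.47 times had a larger ratio. Oas1g, a near-identical copy of Oas1a, had a median of 0.862 FPKM, and how the authors' counting split reads between the copies is not given. Oas3 spanned 1.12 to 1.67 FPKM, Oas2 0.399 to 0.781 FPKM, Oasl2 0.474 to 1.45 FPKM and Oasl1 0.0711 to 0.238 FPKM. A2 was highest in these genes except Oasl1, which was highest in C3.

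Several antiviral effectors were low. Ifit2, of the family that binds viral RNA, spanned 2.74 to 3.46 FPKM, but its relatives Ifit1 (0.177 to 0.510 FPKM) and Ifit3 (0.241 to 0.755 FPKM) stayed below 1 FPKM in every culture. Rsad2, the enzyme viperin, spanned 0.424 to 2.03 FPKM, highest in A2 and lowest in A3. Ifi44 spanned 0.156 to 0.648 FPKM and was highest in C2. The remaining members, Parp14 (5.08 to 6.56 FPKM), Xaf1 (2.73 to 3.45 FPKM), Cmpk2 (2.08 to 2.49 FPKM) and Rtp4 (0.755 to 1.42 FPKM), varied less than 2-fold between cultures.

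Mx1 and Mx2, dynamin-like GTPases that block viruses, lie on chromosome 16 near the end of the segment that is triplicated in Ts1Rhr mice. From the published construction of the strain, the segment is taken to run from Cbr1 to Fam3b. In the GRCm38 annotation Mx1 occupies 97447035 to 97462907 on the minus strand, 8.06 kb before Fam3b, and is the only member of the list inside it. Mx2, annotated as a polymorphic pseudogene, starts 20.5 kb beyond Fam3b at 97535308 on the plus strand. Mx1 had 0.304, 0.681, 0.222, 0.335, 0.439 and 0.416 FPKM, highest in A2, and Mx2 had 0.245, 0.272, 0.216, 0.273, 0.271 and 0.285 FPKM. Many inbred laboratory strains carry a defective Mx1. Parp14 and Rtp4 lie on chromosome 16 too, outside the segment.

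Because many of these genes are targets of ISGF3, their promoters were searched for the core of the interferon-stimulated response element, GAAA, any 2 bases and GAAA again, on both strands, with overlapping matches allowed. RefSeq promoter sequences (GRCm38.p6, 250 bases before to 50 bases after the start) were held for 28 of the 36 members. The core was present in 14 of the 28, or 50%, against 3.99% of all symbols with such a promoter and 3.82% of those with a median of at least 1 FPKM. A match describes letters and not a bound site. The 150 bases before the start are printed for 5 members, in lower case with matches in capitals. They were chosen after their values were seen, to set genes that were highest in A2 beside Gbp3, which was lowest in it.
Isg15, minus strand, chr4:156200819-156200968: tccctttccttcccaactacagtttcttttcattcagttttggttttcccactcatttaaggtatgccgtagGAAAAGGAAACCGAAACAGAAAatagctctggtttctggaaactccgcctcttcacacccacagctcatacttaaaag
Oas1a, minus strand, chr5:120907526-120907675: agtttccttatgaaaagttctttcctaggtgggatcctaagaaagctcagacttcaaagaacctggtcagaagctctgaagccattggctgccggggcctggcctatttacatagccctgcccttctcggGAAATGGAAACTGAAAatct
Bst2, minus strand, chr8:71537473-71537622: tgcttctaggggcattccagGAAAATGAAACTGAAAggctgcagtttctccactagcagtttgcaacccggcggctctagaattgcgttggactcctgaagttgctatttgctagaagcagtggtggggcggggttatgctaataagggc
Rsad2, minus strand, chr12:26456453-26456602: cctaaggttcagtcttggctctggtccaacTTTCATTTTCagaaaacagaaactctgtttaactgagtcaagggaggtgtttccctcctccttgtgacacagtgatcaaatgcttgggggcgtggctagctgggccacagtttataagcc
Gbp3, plus strand, chr3:142559894-142560043: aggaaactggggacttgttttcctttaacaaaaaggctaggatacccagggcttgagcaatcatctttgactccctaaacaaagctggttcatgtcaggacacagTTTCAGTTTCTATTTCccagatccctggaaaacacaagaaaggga

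Isg15 held 3 overlapping matches that started 78, 72 and 66 bases before the start. Oas1a held 2, at 20 and 14 bases, and Bst2 held 2, at 130 and 124 bases. Rsad2 held 1 match at 120 bases and Gbp3 held 2 at 45 and 39 bases, all on the opposite strand and so read as TTTC. The core was found in genes of either pattern over cultures. Of the 4 members of at least 1 FPKM that were at least 1.5 times higher in A2, 2 held it, and of the 18 other such members with a promoter, 9 did.

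Among the cultures, A2 stood out most often. Of the 26 members of at least 1 FPKM, 11 had their highest value in A2, against 22.7% of all 10673 genes. For A3 the count was 4 members, against 31.1% of all genes, for C1 5 members against 17.8%, for C2 3 against 17.1%, for C3 3 against 6.37% and for A1 0 against 4.95%. The A3 count was 1 when the columns were rescaled by the median ratio, against 23.3% of all genes, and 0 when they were rescaled to the upper quartile, against 15.5%. A2 held the lowest value of 1 member, Gbp3, although it was the lowest culture for 39.5% of all genes. The lowest values of the members lay most often in A1 and C1, with 8 members each, against 7.71% of all genes for A1 and 17.1% for C1. For C2 the count was 4 against 14% of all genes, for A3 3 against 14.4% and for C3 2 against 7.23%.

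**Figure D2:**
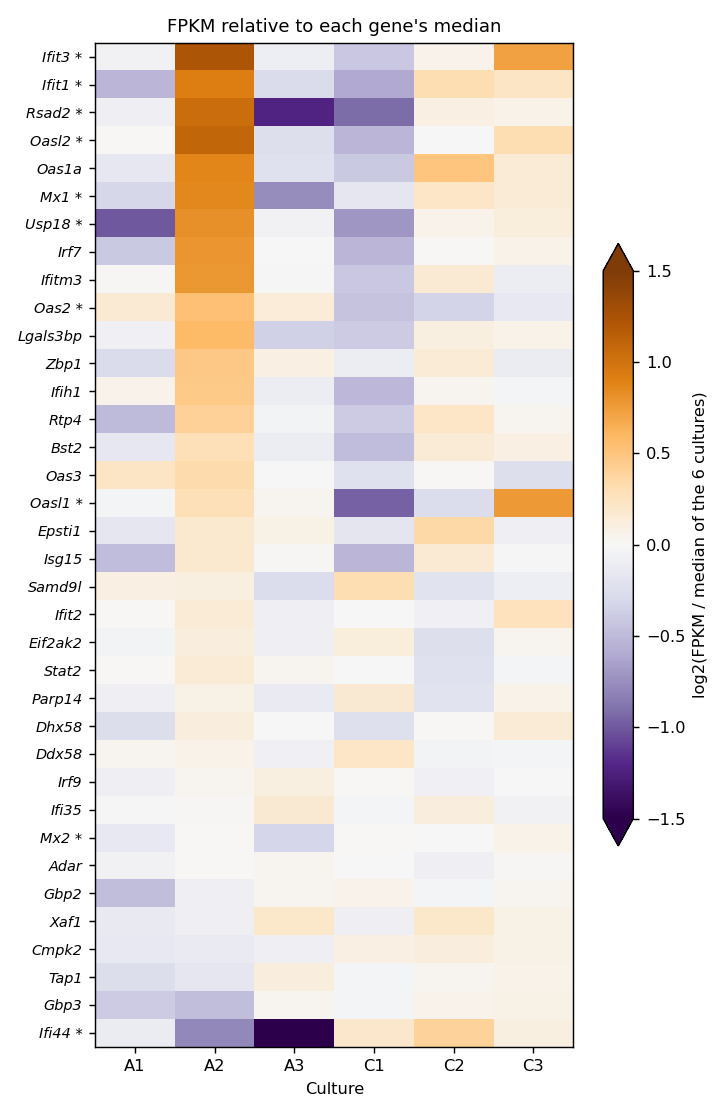
Colour shows log2 of FPKM over the gene's median for each interferon-stimulated gene (rows) and culture (columns), with rows ordered by the ratio of A2 to the median of the other 5 cultures. Stars mark genes with a median below 1 FPKM. Ifit3, at the top, was 2.44 times higher in A2, and Ifi44, at the bottom, had 0.543 times the level.

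Within the 3 columns that share the letter A, A2 was highest for 18 of the 26 members, against 31% of all genes. Within the 3 columns with the letter C, C2 was highest for 13 of the 26, against 49.8% of all genes. With A2 left out, C2 held the highest value of 10 members, against 25.2% of all genes, and the lowest values lay in A1 for 9 members, against 25.1% of all genes, and in C1 for 8, against 24.2%.

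The size of the difference was small for most members. Set against the median of the other 5 cultures, A2 was 1.11 times higher in the median over the 26 members, against 0.945 times over all genes. Of the 26, 4 were at least 1.5 times higher in A2, which are Oas1a (2.04 times), Irf7 (1.73 times), Ifitm3 (1.73 times) and Lgals3bp (1.57 times), against 6.91% of all genes. None was 1.5 times lower, against 2.19% of all genes. The threshold of 1.5 was chosen after the values were seen. Over the 36 members, 6 lay below the median of the other cultures in A2, among them Tap1 (0.876 times), Gbp3 (0.702 times) and Gbp2 (0.932 times). With a median of 0.945 times, most genes of at least 1 FPKM lay below it too, and Gbp2 was close to that median.

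The 10 members with a median below 1 FPKM leaned further to A2. A2 was highest for 7 of them, against 25.7% of all genes with a median of 0.1 to 1 FPKM, and at least 1.5 times higher for the same 7, against 21.1%. They were Ifit3 (2.44 times), Ifit1 (2.29 times), Rsad2 (2.15 times), Oasl2 (2.14 times), Mx1 (2.03 times), Usp18 (1.83 times) and Oas2 (1.60 times). The other 3 were Mx2 (1.00 times), Oasl1 (1.25 times) and Ifi44 (0.543 times). Reads from Ifit3b, a near copy of Ifit3 with no row of its own symbol, may be counted with Ifit3. At these levels and an unknown depth, the counting error of each value is not known.

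Over all 26 members the spread between cultures was close in size to that of other genes. The highest minus the lowest log2(FPKM + 1) value had a median of 0.40 over the members and 0.36 over all genes of at least 1 FPKM. Without A2 these medians were 0.31 for the members and 0.29 for all genes. A range above 0.5 was found for 9 of the 26 members, against 26.6% of all genes. A range above 1 was found for 2, Ifitm3 with 1.17 and Oas1a with 1.06, and the share of all genes above 1 was not computed. The median deviation of the members from their own medians was 0.10 in A2, against -0.05 for all genes, and lay between -0.08 in A1 and 0.03 in C3 for the other cultures.

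A2 also stood apart in the markers of cell type. The labels name pro-B cells, and all 13 pro-B markers were expressed, with summed levels of 1648 to 2403 FPKM, lowest in A2. Vpreb1 and Igll1, the surrogate light chain, and Cd79a had medians of 437, 351 and 408 FPKM. The cultures also held myeloid transcripts: all 10 myeloid markers had a median of at least 1 FPKM and none was at 0. Lyz2, the lysozyme of macrophages and neutrophils, had 3445, 4437, 2457, 2462, 3637 and 3441 FPKM, above every pro-B marker. A2 was highest for all 10, against 22.7% of all genes, and their median ratio of A2 to the other cultures was 1.83. Their summed level was 5267 FPKM in A2 and 2863 to 4230 FPKM in the other 5. Most of that sum was Lyz2, which was 1.29 times higher in A2. A2 had the lowest value for 11 of the 13 pro-B markers, against 39.5% of all genes. In bulk RNA, fewer cells of a type and less RNA per cell cannot be told apart.

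**Figure D3:**
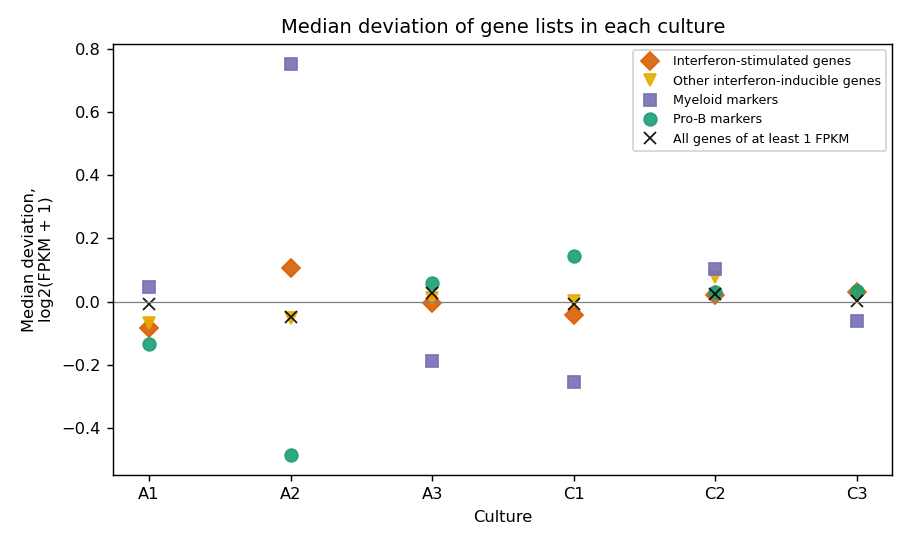
Median deviation of log2(FPKM + 1) from each gene's median over the 6 cultures (vertical axis), for 4 gene lists and all genes of at least 1 FPKM, in each culture (horizontal axis). In A2 the myeloid markers reach 0.75 and the pro-B markers -0.49, with the interferon-stimulated genes at 0.10 between them.

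Markers of other cells were lower. Of the plasmacytoid dendritic cell markers, cells that make much interferon and keep high Irf7, 3 of 5 had a median of at least 1 FPKM. The summed level of the 5 was 24.4 FPKM in A2 and 11.1 to 18.1 FPKM in the other cultures. Its largest part was Tlr7, also counted among the sensors and adaptors, with 13.4 FPKM in A2. Siglech had 2.59, 6.52, 3.09, 1.82, 2.94 and 5.07 FPKM, and Ccr9 had 3.31 FPKM in A2 and 3.21 FPKM in C3. The conventional dendritic list had 1 of 5 markers above the minimum, Itgax, and summed to 17.3 FPKM in A2, against 8.61 to 12.1 FPKM elsewhere. Itgax alone had 15.9 FPKM in A2. Of the low markers, Cd209a was highest in A2, Zbtb46 in A3, Clec9a in C3 and Xcr1 in C1. Mast cell and basophil markers, 2 of 6 above the minimum with Cma1 at 0 throughout, summed to 14.5 FPKM in A2 and 6.21 to 15.1 FPKM in the others. T and NK markers (1 of 6) summed to 4.22 FPKM in A2 and 1.71 to 5.96 FPKM elsewhere, and no erythroid marker reached 1 FPKM. The part of these cells in the A2 values of the interferon-stimulated genes was not tested.

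No interferon gene reached 1 FPKM in any culture. Of 23 ligand symbols 19 had a row, 17 of these, Ifnb1 among them, were listed at 0 in all 6 cultures, and the highest value of any was 0.231 FPKM, for Ifng in A1. Transcripts of the receiving side were present. All 8 receptor and kinase genes other than Il28ra had a median of at least 1 FPKM, the 3 highest being Jak1 at 46.9 FPKM, Il10rb at 38.4 FPKM and Ifngr2 at 32.7 FPKM. Ifnar1 spanned 14.9 to 17.8 FPKM and Ifnar2 25.4 to 35.2 FPKM. A2 was highest for 6 of the 8, against 22.7% of all genes. None of the 8 was at least 1.5 times higher in A2, against 6.91% of all genes.

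Of 9 genes for ISGF3 subunits and interferon regulatory factors, 3 of them members, all had a median of at least 1 FPKM. Irf8 led at 84.1 FPKM, then Irf4 at 42.0 FPKM and Irf2 at 31.6 FPKM, factors that B-lineage cells are known to use without interferon. Irf7 was the lowest of the 9 and the only gene of this list at least 1.5 times higher in A2. For the 9 genes the median ratio of A2 to the other cultures was 0.935. A2 was highest for 3, against 22.7% of all genes, and lowest for 3, against 39.5%. Of the 15 sensors and adaptors with a row, 14 reached 1 FPKM, led by Ddx41 at 35.2, Trim25 at 33.4 and Ifi203 at 29.5 FPKM. A2 was highest for 6 of the 14, against 22.7% of all genes, and lowest for 2, against 39.5%. At least 1.5 times higher in A2 were 3 of them, against 6.91% of all genes.

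**Figure D4:**
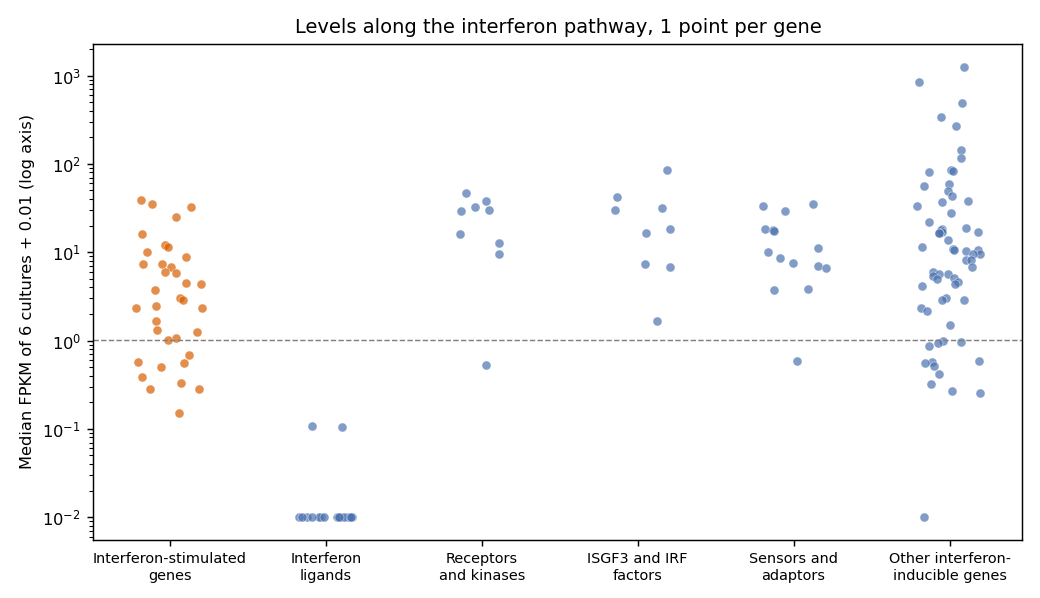
Median FPKM over the 6 cultures plus 0.01 (vertical log axis), 1 point per gene, for the interferon-stimulated genes and the other lists of the pathway. The dashed line marks 1 FPKM. The ligands lie at the bottom, with 17 listed at 0, and the receptors, kinases and factors lie mostly between 1 and 100 FPKM.

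A wider list of other interferon-inducible genes, with no member in it, gave a further comparison for A2. Of 71 symbols 65 had a row and 52 a median of at least 1 FPKM, with the antigen-presentation genes B2m at 1265 FPKM and H2-D1 at 856 FPKM and the surface protein gene Ly6e at 489 FPKM on top. A2 was highest for 15 of the 52, against 22.7% of all genes, and lowest for another 16, against 39.5%. The median ratio of A2 to the other cultures was 1.11 in the 26 members, against 0.931 in these 52 genes, of which 3 were at least 1.5 times higher in A2, against 6.91% of all genes. The same ratio was 1.16 for the receptors and kinases, 1.13 for the sensors and adaptors and 0.935 for the ISGF3 and regulatory factors. Whether the lists differ was not tested.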

How the data were processed

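RNA libraries of 6 mouse pro-B colony cultures were prepared with TruSeq chemistry and run on an Illumina HiSeq, per the labels' protocols. The authors deposited 1 table of FPKM values with 23021 rows. Cufflinks 2.0.0, TopHat2 2.0.7, Bowtie2 and FastQC appear in the submitters' processing notes, as do the builds GRCm38 and mm9, with no role given. Strand handling, multi-mapping rules and read totals are not given in the sources used here.

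The 6 columns carry passage 1 in their names, as do all 6 titles, and were taken as 1 group. No genotype was assigned, so no test between groups was run. Dixon's gap ratio was used to pick out values far from the other cultures. Rows of 1 symbol were summed. Medians, ranges on log2(FPKM + 1) and the culture with the highest or lowest value were computed for each gene. Genes with a median of at least 1 FPKM were used, with Python 3.11.15, pandas 2.3.3 and numpy 2.4.6. The code was checked on simulated data, with a difference larger than most of those seen here. Correlations of log2(FPKM + 1) between columns were 0.973 to 0.995, and at most 0.0187% of genes had identical values in any pair of columns. Between 6676 and 7213 symbols were listed at 0 per column. An exact 0 can be a failed estimate, since 1 gene with a median of at least 20 FPKM was at 0 in a culture.

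FPKM in every culture was printed for the 10 members with the highest medians, the 10 with the widest ranges among those of at least 1 FPKM, and Irf7, Irf9, Stat2, Usp18, Isg15, Mx1 and Mx2. The top 3 genes of other pathway lists were named. A further gene of the pathway is not reported here. Other genes were named after their values were seen. Members and lists were chosen with earlier results of these data known. Alternatives were a pseudocount of 0.1, rescaling by median ratio or upper quartile, the highest row per symbol, other minimums and leaving out each culture.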

Additional observations from a re-analysis of the deposited data

Results flagged for a closer look

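Among the 36 interferon-stimulated genes, 2 had a culture whose gap to the nearest other exceeded Dixon's critical value of 0.625 of the whole range for 6 values. Irf7 stood at 2.86 FPKM in A2, against 1.16 to 1.74 FPKM in the other 5 cultures. Gbp2 stood at 8.32 FPKM in A1, below the other 5. Chance flags about 1 in 20 groups of 6 independent, normally distributed values, and 2 of 36 is near that rate. The 36 genes share the same 6 libraries, so the rate is only a rough guide here.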

How the results depend on the processing

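No paired analysis was possible because no column of values could be tied to a genotype, so the numbers shared by the titles could not pair columns. The count of 26 of the 36 members of at least 1 FPKM stood against 47.3% of all symbols. It was 30 with a minimum of 0.5 FPKM and 14 with a minimum of 5 FPKM. At 5 FPKM, 7969 of all 22551 symbols passed, a share closer to that of the members. The share of all symbols at 0.5 FPKM was not computed. Of 26 members, 11 were highest in A2, against 22.7% of all genes. The count became 15 of 26 by median ratio (31% of all genes), 15 of 27 by upper quartile (25.5%), 18 of 36 with no minimum (22.5%) and 4 of 14 with a minimum of 5 FPKM (20.6%). The 4 members at least 1.5 times higher in A2 became 5 under either rescaling, 11 with no minimum and 2 with a minimum of 5 FPKM. The shares of all genes under these settings were not computed, so the changes say nothing particular to the members. As reported, 6.91% of all genes of at least 1 FPKM passed 1.5 times, and 21.1% of those of 0.1 to 1 FPKM. More or fewer genes enter under another minimum. Leaving out each culture in turn, the median deviation of the members in C1 lay between -0.11 (without A1) and -0.0053 (without C2), against -0.04 with all cultures. In A2 it lay between 0.10 and 0.13, and it was 0.17 by median ratio (all genes -0.0016), 0.15 by upper quartile (all genes -0.03) and 0.08 with a minimum of 5 FPKM (all genes -0.07), against 0.10 as reported (all genes -0.05). The median range of the members was 0.31 to 0.46 over these fits and 0.52 with a pseudocount of 0.1. Of 163 values recomputed, 143 moved little, where counts were taken as little moved up to a ratio of 1.5. The median range was so taken if it shifted by less than the members' median standard deviation over the cultures. For the deviations the limit was wide. The move in A2 from 0.10 to 0.17 by median ratio counted as little, as did the changes of sign given below. The 143 include the values with the highest row kept per symbol. That setting could not change them, because each member had 1 row. With a minimum of 5 FPKM the median deviation changed sign in A3, to 0.0258 against -0.0054, and in C2, to -0.0002 against 0.0196, all close to 0. Read totals are unknown, so the precision of members below 1 FPKM cannot be given.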

Other observations

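Cmpk2 and Rsad2, neighbours on chromosome 12, differed over the cultures: A2 had 0.877 times the median of the other 5 for Cmpk2 and 2.15 times for Rsad2. Among interferon-inducible genes outside the 36, Ifitm1, a relative of Ifitm3, had a median of 56.8 FPKM and was 1.85 times higher in A2, and Slfn5 was 1.77 times higher with a median of 8.20 FPKM. Oas1c and Oas1b went the other way, at 0.704 and 0.838 times in A2, while Oas1a stood at 2.04 times. These genes were named after their values were seen.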
